A study of Homo sapiens with 12 samples.

Results

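The ZNF genes are a large group of human genes named for the zinc fingers of their proteins, and 233 of them were well expressed in a T-cell leukemia line that was given dexamethasone. They were chosen by their names and selected on their mean level: the gene symbol was ZNF and a number, the probe set carried that symbol alone, and its mean log2 value over all 12 arrays was 6 or higher. The probe set with the highest mean stood for its gene. The array held 425 such genes, of which 309 had a probe set above the low-value filter (a log2 value of 4 or higher on 3 or more arrays) and 233 also reached the mean of 6. The remaining 76 of these 309 lay below it. The choice used the mean level but neither treatment nor time, and all 233 genes passed the filter. Just inside the limit stood ZNF485 with a mean of 6.01, ZNF668 with 6.01 and ZNF397 with 6.03, and just outside it ZNF8 with 5.99, ZNF606 with 5.98 and ZNF10 with 5.96.

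Most ZNF proteins carry an array of C2H2 zinc fingers, small folds held by a zinc ion, and each finger can contact a few bases of DNA. Many also carry a KRAB domain, which binds the corepressor TRIM28 (KAP1); TRIM28 in turn recruits the histone methyltransferase SETDB1 and HP1 proteins, and the bound DNA, often a transposable element, is silenced. The KRAB genes multiplied by tandem duplication and lie in clusters, above all on chromosome 19, so neighbours often resemble each other in sequence.

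The cells were CCRF-CEM-C7H2, a glucocorticoid-sensitive subclone of a human T-cell acute lymphoblastic leukemia line. They received 100 nM dexamethasone, a synthetic glucocorticoid that acts through the glucocorticoid receptor, or its carrier, 0.1% ethanol, and RNA was taken at 6 h or 24 h. The 4 groups (ethanol at 6 h, dexamethasone at 6 h, ethanol at 24 h and dexamethasone at 24 h) held 3 arrays each, 1 per independent experiment. Experiments 0, 1 and 3 supplied the early samples, and experiments 1, 2 and 3 the late ones. P-values therefore describe the spread among experiments with 1 subclone. In such bulk RNA, fewer cells of a kind and less RNA per cell cannot be told apart.

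Expression was read on Affymetrix HG-U133 Plus 2.0 arrays as log2 values per probe set. Between 22560 and 22999 probe sets per array reached a log2 of 4. The known glucocorticoid target FKBP5 rose on the log2 scale by 2.57 at 6 h, while TSC22D3 lay below 4 on every ethanol array and above it on every dexamethasone array, so no size is given for it. Of 10 T-lineage markers 8 were above the filter, including CD3D and LCK, while CD2 and CD28 stayed below 4 on every array. None of the 5 myeloid and 2 erythroid markers on the table was above it. Of 4 B-cell markers, CD79A (mean 10.61, 1.55 higher with dexamethasone at 24 h) and CD79B were, while MS4A1 and PAX5 were not; EPCAM (10.70) and COL1A1 (6.17) were above it as well, and the part of these transcripts in the results was not tested. At 6 h the ethanol and the dexamethasone arrays carried separate scan codes in their names, so scan and treatment cannot be told apart at that time; all 24 h arrays shared 1 code. The poly-A spikes, bacterial transcripts added to the RNA, read 0.51 higher with dexamethasone at 6 h and 0.40 higher at 24 h. In the hybridization controls (9 probe sets) the dexamethasone arrays exceeded the ethanol arrays too, with differences of 0.36 (6 h) and 0.37 (24 h). A shift of this kind was thus not limited to the poly-A spikes, and its source was not tested. Scaling each array to these spikes moved the median change of all genes at a mean of 6 or more from -0.01 to -0.52 at 6 h and from -0.04 to -0.44 at 24 h. Directions below are relative to the bulk of the transcripts, as the deposited normalization gives them, and the split on the spike scale is given beside the main counts.

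The most abundant ZNF transcripts, by mean log2 over all arrays, were ZNF207 (12.63), whose protein binds microtubules and takes part in spindle assembly, ZNF423 (12.14), a partner of EBF transcription factors, ZNF121 (11.99), ZNF664 (11.97) and ZNF706 (11.88). The median ZNF gene stood at 7.90, below the median of 9.14 over the 8443 tested genes at 6 or more. Of the 233 genes, 27 reached a mean of 10, 109 reached 8 and 68 lay under 7.

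At 6 h few ZNF genes had responded. By limma with Benjamini-Hochberg adjustment over all 23265 tested probe sets, 7 were higher and 8 lower with dexamethasone at an adjusted p under 0.05, which is 3.00% and 3.43% of the 233. Over all 9947 tested genes 2.72% were higher and 3.77% lower, and over those at a mean of 6 or more 2.95% were higher and 4.24% lower. The median change of the ZNF genes at 6 h was 0.00. The groups did not overlap for 55 ZNF genes, or 23.6%, with dexamethasone higher in 26, below the background share of 27.3% of genes. On the spike scale 1 ZNF gene was higher and 165 (70.8%) were lower at 6 h, against 0.995% and 72.7% of the genes at 6 or more. Blocking on the experiment took the count from 15 to 35 (16 higher, 19 lower), with 6.46% of genes at 6 or more higher and 8.31% lower in that fit. It fell to 3 when only the 6 h arrays were fitted. Leaving out 1 array gave 5 calls without the ethanol array of experiment 3 at 6 h, 6 without the dexamethasone array of experiment 1 at 6 h or the ethanol array of experiment 2 at 24 h, and 7 without the ethanol array of experiment 1 at 6 h. It gave 8 without the ethanol array of experiment 0 or the dexamethasone array of experiment 3 at 6 h, and 9 without the dexamethasone array of experiment 1 at 24 h.

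ZNF595, a KRAB gene at the tip of the short arm of chromosome 4, had the largest early rise. Its log2 level was 6.88, 6.99 and 6.99 with ethanol and 8.28, 8.11 and 8.23 with dexamethasone at 6 h. The groups lay far apart, and the change was 1.25 ± 0.19 (here and below limma's standard error, n = 3 arrays per group; 2.39-fold, adjusted p 0.00357). At 24 h the levels were 7.34, 6.74 and 6.86 with ethanol and 8.75, 8.07 and 8.03 with dexamethasone, a change of 1.31 ± 0.19 (adjusted p 0.00025). ZNF595 thus stood at about the same distance at both times, and no difference between the responses passed the test (0.05, adjusted p 0.916). ZNF791, a KRAB gene on chromosome 19, followed the same course at its brightest probe set. It read 8.06, 7.84 and 8.15 with ethanol and 8.71, 8.75 and 8.76 with dexamethasone at 6 h (0.72 ± 0.10, adjusted p 0.00192), and it was 0.77 ± 0.10 higher at 24 h (adjusted p 0.000102). Neither time showed any overlap at this probe set. Both of its other probe sets were called higher at 24 h (0.80 and 1.04). At 6 h they read 0.39 and 0.46 and did not pass the test (adjusted p 0.233 and 0.240). Whether ZNF791 rose further after 6 h thus depends on the probe set read.

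**Figure D1:**
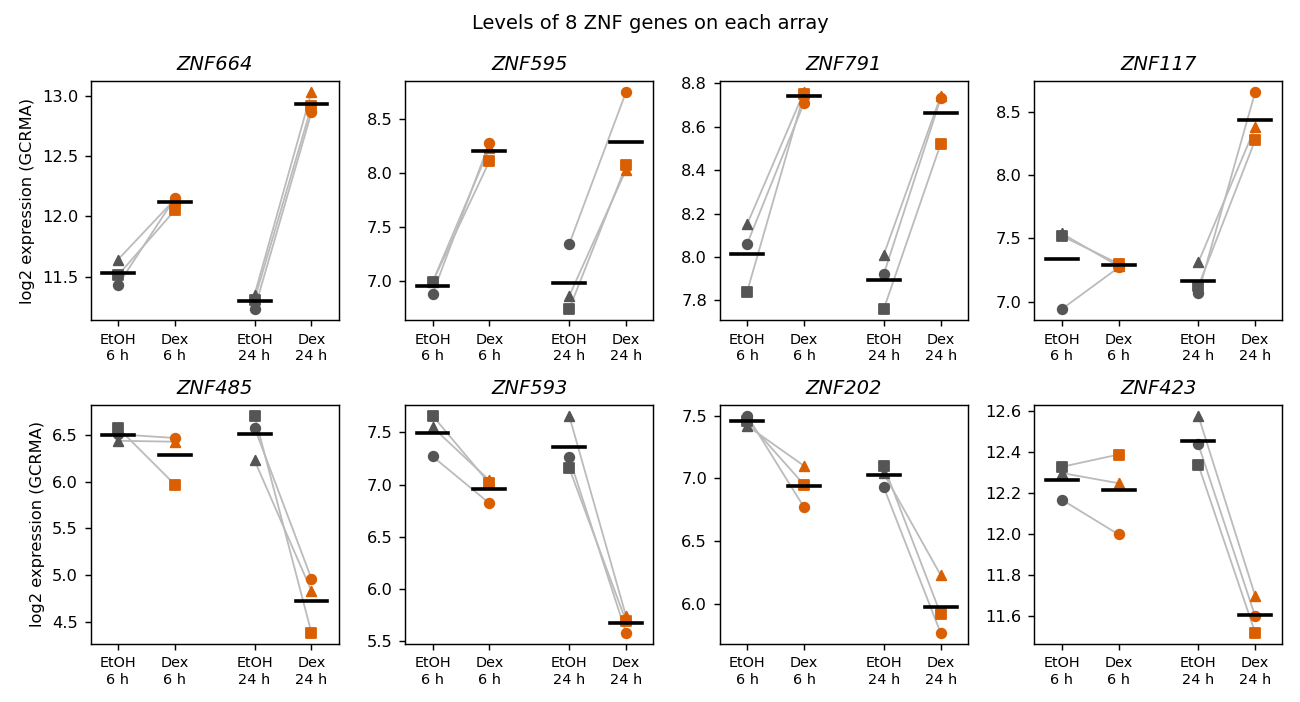
Log2 expression of 8 ZNF genes on each of the 12 arrays, with ethanol (EtOH, grey) and dexamethasone (Dex, orange) at 6 h and 24 h; the vertical axis differs between panels and does not start at 0. Lines join arrays of 1 experiment (circle, square and triangle are experiments 0, 1 and 3 in the 6 h arrays, and experiments 1, 2 and 3 in those of 24 h) and black bars are group means. At the probe sets drawn, ZNF595 and ZNF791 were already about as far above ethanol at 6 h as at 24 h, while ZNF117, ZNF485 and ZNF423 separated at 24 h.

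ZNF664 rose at 6 h and rose further by 24 h. At 6 h it read 11.43, 11.51 and 11.64 with ethanol against 12.15, 12.05 and 12.14 with dexamethasone, a change of 0.59 ± 0.08 (1.50-fold, adjusted p 0.00165). ZNF672 (0.52), ZNF266 (0.37), ZNF496 (0.36) and ZNF689 (0.43) were the other genes higher at 6 h, and of these ZNF689 alone was not called at 24 h, where its change was -0.13 (adjusted p 0.23). Its 2 responses differed by -0.56 (adjusted p 0.00626). The 8 genes lower at 6 h were ZNF593 (-0.53), ZNF26 (-0.52), ZNF202 (-0.52), ZNF320 (-0.51), ZNF420 (-0.43), ZNF468 (-0.42), ZNF708 (-0.34) and ZNF121 (-0.31). A second probe set of ZNF320, with a mean of 7.18, read 0.00 at 6 h (adjusted p 0.991). ZNF202 encodes a SCAN and KRAB protein known as a repressor of genes of lipid metabolism. It read 7.50, 7.46 and 7.42 with ethanol and 6.77, 6.95 and 7.10 with dexamethasone at 6 h (adjusted p 0.0309).

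Of the 15 calls at 6 h, 4 (ZNF595, ZNF791, ZNF664 and ZNF689) kept an adjusted p under 0.05 when any 1 of the 12 arrays was left out, and 11 did not. The highest values came without the dexamethasone array of experiment 3 at 6 h for ZNF320 (0.146), ZNF26 (0.136), ZNF468 (0.131) and ZNF266 (0.122), and without the ethanol array of experiment 1 for ZNF593 (0.142) and ZNF420 (0.112). They came without the ethanol array of experiment 0 for ZNF672 (0.139) and ZNF202 (0.0888), and without that of experiment 3 for ZNF708 (0.111), ZNF121 (0.107) and ZNF496 (0.0651).

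By 24 h 104 of the 233 ZNF genes had responded, and more of them were higher than lower, whereas among all genes at 6 or more the lower ones were the larger group. With dexamethasone 61 (26.2%) were higher and 43 (18.5%) lower, against 23.9% and 28.1% of all tested genes and 23.8% and 31.0% of those at a mean of 6 or more. The median change was 0.07, against -0.04 over the genes at 6 or more. On the spike scale 13 (5.58%) were higher and 88 (37.8%) lower, against 6.95% and 51.6% of the genes at 6 or more. Every one of the 104 called genes moved in 1 direction in all 3 experiments. The calls rest on these same arrays, so this agreement is no separate support for them. The groups did not overlap for 138 ZNF genes (59.2%), 82 of them with dexamethasone higher, against a background of 68.9% of genes. The changes were small beside those of other genes: 10 ZNF genes (4.29%) changed at least 2-fold, 6 up and 4 down, against 11.8% of the genes at 6 or more, and the whole range ran from -1.78 to 1.63.

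**Figure D2:**
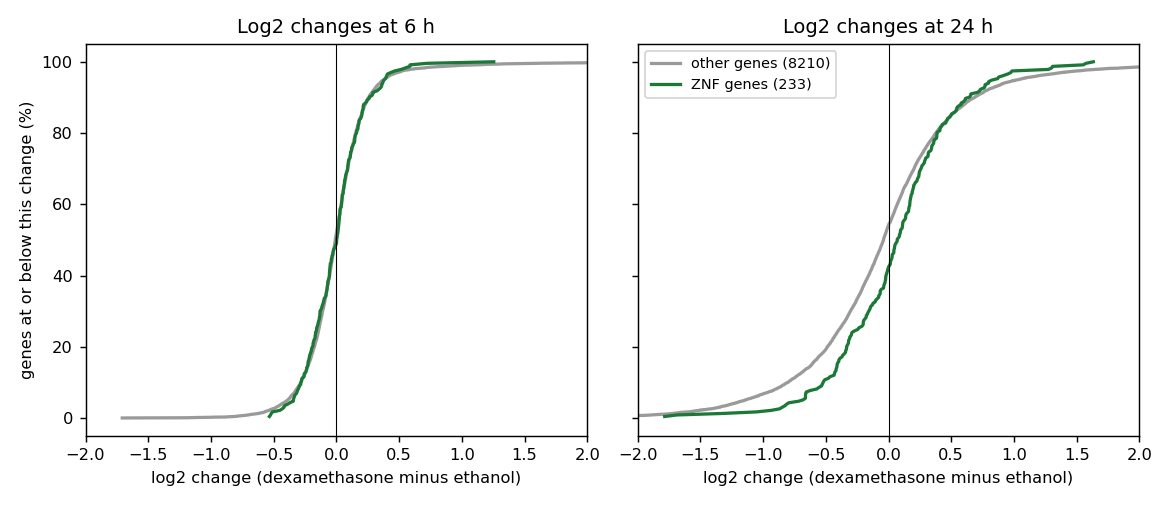
Share of genes at or below each log2 change (dexamethasone minus ethanol) at 6 h and 24 h, for the 233 ZNF genes (green) and the 8210 other tested genes at a mean log2 of 6 or more (grey); both axes are linear and changes beyond 2 on either side are not drawn. At 6 h the curves lie together; at 24 h the green curve is steeper, with 4 of 233 ZNF genes and 554 of 8210 other genes at least 2-fold lower.

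The rise of ZNF664 was the largest at 24 h. Ethanol arrays read 11.23, 11.31 and 11.35 and dexamethasone arrays 12.86, 12.91 and 13.03, a change of 1.63 ± 0.08 (3.10-fold, adjusted p 8.28e-08). The groups were far apart, and a second, dimmer probe set rose by 1.86 (adjusted p 0.00014). Next came ZNF438, at 6.33, 6.78 and 7.18 with ethanol and 8.16, 8.10 and 8.75 with dexamethasone (1.57 ± 0.24, adjusted p 0.000263). Its other probe set, with a mean of 5.24, was 0.35 higher and did not pass the test (adjusted p 0.165). ZNF862 went from 6.83, 6.45 and 6.39 to 8.28, 7.97 and 8.07 (1.55 ± 0.22, adjusted p 0.000168), and its other probe set rose by 0.82. The ethanol arrays of ZNF862 had read higher, 7.81, 7.49 and 7.46, at 6 h, while the dexamethasone mean was 7.92 at 6 h and 8.11 at 24 h.

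The next rises came from chromosomes 19 and 7. ZNF211, on the long arm of chromosome 19, read 5.80, 6.31 and 6.32 with ethanol and 7.23, 7.42 and 7.69 with dexamethasone (1.30 ± 0.17, adjusted p 0.000105). ZNF117, on chromosome 7, read 7.07, 7.12 and 7.31 against 8.66, 8.28 and 8.38 (1.27 ± 0.16, adjusted p 6.22e-05), and its 3 other probe sets rose as well. ZNF107, nearby on the same chromosome, read 11.41, 11.43 and 11.17 against 12.46, 12.27 and 12.24 (0.98 ± 0.16, adjusted p 0.000547). No array with dexamethasone fell among the ethanol arrays for any of these genes, but ZNF117 and ZNF107 are read by probe sets that can bind related transcripts. The remaining 5 of the 12 largest rises were ZNF641 (0.98), ZNF81 (0.95), ZNF185 (0.92), ZNF319 (0.88) and ZNF362 (0.87). A second probe set of ZNF81, with a mean of only 4.30, read -0.06 (adjusted p 0.801). ZNF185 is an exception in this group by name only: its protein is known as an actin-associated protein with a LIM domain. ZNF319 had the tightest groups, with ethanol arrays at 6.28, 6.29 and 6.25 and dexamethasone arrays at 7.17, 7.12 and 7.16.

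Of the genes that fell, ZNF485 and ZNF593 fell most. ZNF485 read 6.58, 6.71 and 6.23 with ethanol and 4.96, 4.38 and 4.83 with dexamethasone at 24 h, a change of -1.78 ± 0.18 (3.45-fold lower, adjusted p 1.56e-05). It is the member with the lowest mean, and its 24 h dexamethasone arrays came close to the filter level of 4. ZNF593 encodes a factor of the maturing large ribosomal subunit. It read 7.26, 7.16 and 7.66 with ethanol and 5.58, 5.69 and 5.74 with dexamethasone (-1.69 ± 0.14, 3.22-fold lower, adjusted p 3.57e-06). The fall was already called at 6 h and was larger at 24 h by 1.15 on the log2 scale, an interaction of -1.15 (adjusted p 0.0021).

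ZNF202 was lower at both times, at 6.93, 7.10 and 7.04 with ethanol and 5.77, 5.92 and 6.23 with dexamethasone at 24 h (-1.05 ± 0.12, adjusted p 3.92e-05), and its other probe set fell by 1.22 on the log2 scale. ZNF678 fell by 1.32 (± 0.18) at its brightest probe set, at 7.43, 7.56 and 8.07 against 6.07, 6.36 and 6.67. Its other probe sets read 0.06 and 0.41 higher without passing the test, so its fall rests on 1 probe set and is uncertain. ZNF423 stayed one of the most abundant ZNF transcripts while it fell from 12.44, 12.34 and 12.58 to 11.60, 11.52 and 11.70 (-0.85 ± 0.11, adjusted p 7.91e-05). The other large falls were those of ZNF692 (-0.94), ZNF343 (-0.87), ZNF511 (-0.83), ZNF30 (-0.81), ZNF584 (-0.79), ZNF696 (-0.72) and ZNF639 (-0.68). A second probe set of ZNF696, with a mean of only 4.21, read 0.06 (adjusted p 0.737).

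**Figure D3:**
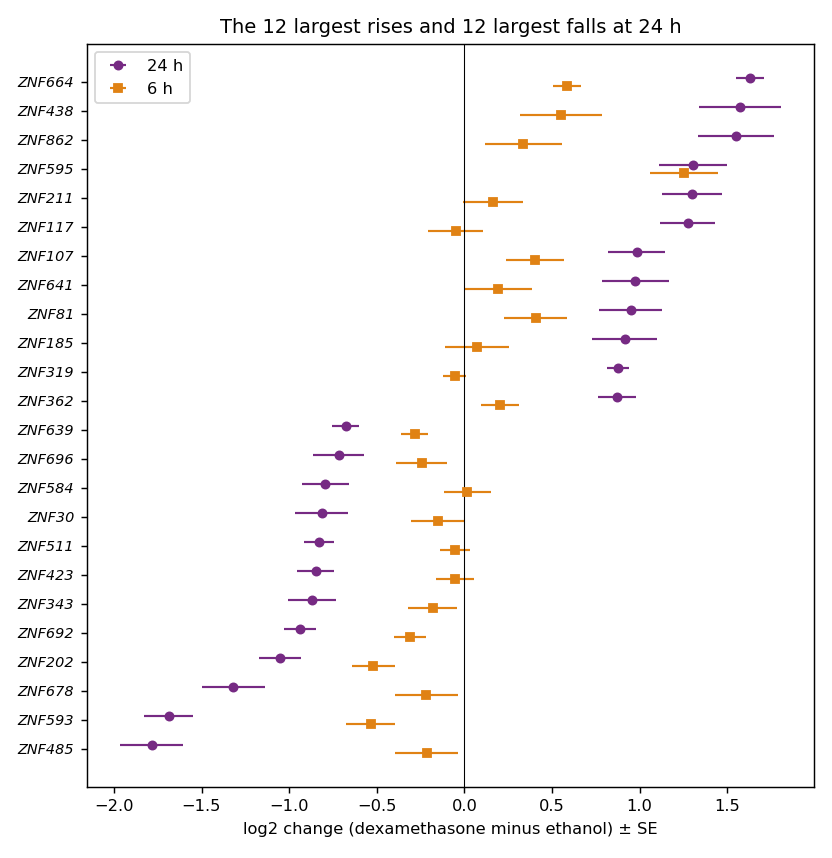
Log2 change (dexamethasone minus ethanol, ± SE, 3 arrays per group) of the 12 ZNF genes with the largest rise and the 12 with the largest fall at 24 h, at 24 h (purple circles) and 6 h (orange squares). At 24 h the rises run from 0.87 (ZNF362) to 1.63 (ZNF664) and the falls from -0.68 (ZNF639) to -1.78 (ZNF485); at 6 h ZNF595 stands at 1.25, ZNF664 at 0.59, ZNF438 at 0.55, ZNF593 at -0.53 and ZNF202 at -0.52, of which ZNF438 did not pass the test at that time.

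The ZNF genes with roles in RNA, ribosomes, translation and mitosis made a list of 10, all well expressed. At 24 h 2 (20.0%) rose and 4 (40.0%) fell, against 23.8% and 31.0% of the genes at 6 or more. The median change of the list was -0.01. ZNF598, the E3 ligase that marks collided ribosomes, fell from 8.33, 8.41 and 8.37 to 7.64, 7.81 and 7.67 (-0.66 ± 0.07, adjusted p 2.74e-05). ZNF593 is described above. ZNF326, which links splicing to transcript elongation, fell by 0.37 and ZNF330 by 0.21 on the log2 scale; ZNF330 had an adjusted p of 0.0638 without the ethanol array of experiment 2 at 24 h. ZNF638 (0.47) and ZNF830 (0.29), both linked to RNA processing, rose. The dimmer probe set of ZNF830, with a mean of 8.69, read 0.09 (adjusted p 0.473), so its rise is uncertain. Those of ZNF326 read -0.05 and -0.17 and did not pass the test. ZNF207 was flat at its brightest probe set, with ethanol arrays at 12.50, 12.50 and 12.53 and dexamethasone arrays at 12.43, 12.60 and 12.50 (-0.00 ± 0.07, adjusted p 0.98). Of its 7 other probe sets 4 rose by 0.80 to 0.92 (adjusted p 0.00021 to 0.00178) and so the value of this gene depends on the probe set read; the cause was not tested.

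Of 29 ZNF genes listed as transcription regulators without a KRAB domain, 21 were members, and 5 rose and 4 fell at 24 h with a median of 0.02. The risers were ZNF827, known to recruit the NuRD complex, which went from 9.37, 9.53 and 9.36 to 10.23, 10.13 and 10.30 (0.80 ± 0.11, adjusted p 0.000122), ZNF292 (0.56), ZNF217 (0.36), an oncogene product bound to corepressors, ZNF24 (0.36) and ZNF384 (0.32). The other probe set of ZNF292, with a mean of 8.28, read -0.01 at 24 h (adjusted p 0.973), so the rise of ZNF292 is uncertain. The fallers were ZNF692, ZNF423, ZNF639 and ZNF592 (-0.52). ZNF143, an activator of snRNA and mRNA promoters, read -0.42 at 6 h and -0.41 at 24 h (adjusted p 0.157 and 0.0503), and both passed once the fit held the experiment as a block (adjusted p 0.0184 and 0.00348). ZNF395 likewise passed at 24 h only with the block (-0.48, adjusted p 0.0618 and, blocked, 0.00206). ZNF521, a homologue of ZNF423, stood at a mean of 10.89 and read 0.07 ± 0.12 at 24 h (adjusted p 0.677). Outside the list, ZNF609, which works with the Integrator complex, went from 6.77, 6.68 and 6.79 to 7.72, 7.56 and 7.36 (0.80 ± 0.10, adjusted p 8.24e-05); it was named after its values were seen.

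Of 11 KRAB genes with a known role 8 were members. At 24 h 1 of them (12.5%) was higher and 1 (12.5%) lower, against 23.8% and 31.0% of the genes at 6 or more. ZNF91, the repressor of SVA retrotransposons, rose from 10.52, 10.61 and 10.41 to 11.53, 11.08 and 11.24 at 24 h (0.77 ± 0.16, adjusted p 0.00244); its second probe set read 0.26 with an adjusted p of 0.052. ZNF202 fell, as above. ZNF93, which represses LINE-1 elements, read 0.16 ± 0.08 (adjusted p 0.144), and ZNF274, ZNF317, ZNF268, ZNF445 and ZNF675 read between -0.14 and 0.24, none past the test. ZNF675 (0.24, adjusted p 0.0747) passed once the experiment was a block (adjusted p 0.0306).

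Genes of the KRAB corepressor and of other silencing factors formed a further list. Of 22 tested genes of that list none was called at 6 h (1 had an unadjusted p under 0.05), while 2 (9.09%) were higher and 8 (36.4%) lower at 24 h, with a median of -0.17, against 23.8% higher and 31.0% lower among the genes at 6 or more. TRIM28, the corepressor itself, changed by -0.55 ± 0.12 (adjusted p 0.00343) and HDAC2 by -0.48. SUV39H2 (-0.58), EHMT2 (-0.35) and SUV39H1 (-0.30), histone H3 lysine methyltransferases, fell, and so did MORC2 (-0.65), UHRF1 (-0.32) and the HP1 gene CBX3 (-0.24). SETDB1 read -0.01 ± 0.11 (adjusted p 0.943), while its partner ATF7IP rose by 0.62 ± 0.10. TASOR, of the HUSH silencing complex, rose by 0.20.

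Zinc finger genes under the names ZFP, ZSCAN and ZKSCAN numbered 28 among the tested genes. They were taken by name alone, whatever the kind of finger, and include ZFP36 (0.56 at 24 h, called higher). None was called at 6 h, and 3 had an unadjusted p under 0.05. At 24 h 12 (42.9%) were higher and 6 (21.4%) lower, with a median of 0.28. Over all tested genes 23.9% were higher and 28.1% lower. ZSCAN16 rose most, by 1.51, and ZKSCAN2 fell most, by 0.93 on the log2 scale. The 76 ZNF genes below a mean of 6 gave 6 higher (7.89%) and 9 lower (11.8%) at 24 h, against the same 23.9% and 28.1%.

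The calls differed by position in the genome, which the choice of members did not use. On chromosome 19 lay 100 of the 233 (42.9%), against 6.36% of all tested genes at 6 or more. On its short arm, 19p, 16 of 36 ZNF genes (44.4%) were higher at 24 h and 1, ZNF121, was lower, with a median change of 0.25. On the long arm, 19q, 9 of 64 were higher and 18 lower, with a median of -0.02. Other genes at 6 or more on 19p went the other way: 13.3% of 241 were higher and 37.8% lower, with a median of -0.13. On 19q 17.9% of 196 other genes were higher and 28.6% lower. The arms were compared after the values were seen, so the split is a description without a test. Of the 36 on 19p, 10 were read by probe sets of the _x_at type, which the maker marks as able to bind related transcripts; without them 9 were higher and 1 lower. Across all members 28 were read by this type, of which 12 were among the 61 risers and 0 among the 43 fallers; its part in the counts was not tested. On the spike scale 19p had 1 higher and 6 lower, and 19q 1 higher and 30 lower.

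Within chromosome 19 the clusters differed. From ZNF557 to ZNF791 on 19p, 9 of 18 were higher, led by ZNF266, which read 9.63, 9.74 and 9.82 with ethanol and 10.57, 10.51 and 10.59 with dexamethasone at 24 h (0.82 ± 0.09, adjusted p 3.29e-05), and ZNF791. ZNF121 lies in this cluster and fell from 12.04, 12.11 and 12.17 to 11.64, 11.73 and 11.65 (-0.43 ± 0.07, adjusted p 0.000678). From ZNF101 to ZNF254, nearer the centromere, 7 of 17 were higher and 0 lower: ZNF91, ZNF431, ZNF430, ZNF253, ZNF506, ZNF708 and ZNF254. From ZNF302 to ZNF573 on 19q, 7 of 13 were lower, namely ZNF30, ZNF529, ZNF569, ZNF573, ZNF567, ZNF607 and ZNF146, and 2 higher, with a median of -0.40. The 42 members from ZNF541 to ZNF446 at the far end of 19q gave 4 higher and 9 lower. Chromosome 7, with 22 members, gave 9 higher and 1 lower, where 22.9% of 376 other genes at 6 or more were higher and 29.8% lower; it too was singled out after the values were seen. Over the whole genome 9 of 60 pairs of neighbouring ZNF members were called in 1 shared direction (15.0%), against 18.5% of 3897 pairs of other genes. Among pairs with both genes called, the shared direction was found in 9 of 13 member pairs (69.2%). For other genes it was found in 58.0% of 1241 such pairs.

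**Figure D4:**
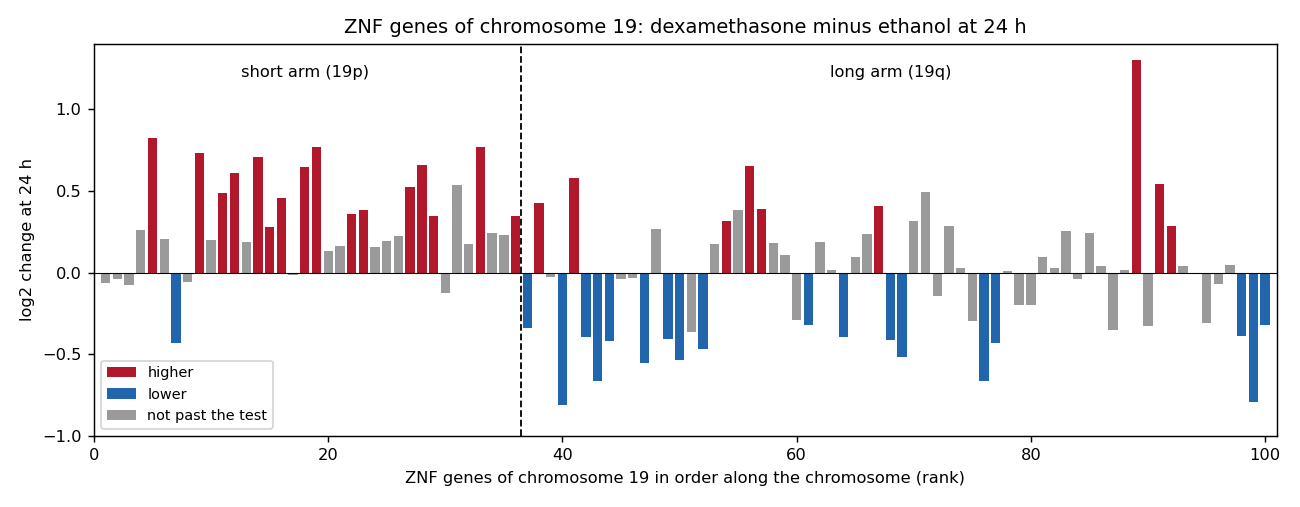
Log2 change at 24 h (bars from 0) of the 100 well-expressed ZNF genes of chromosome 19, in order along the chromosome; red bars are higher and blue bars lower with dexamethasone at an adjusted p under 0.05, grey bars did not pass. Left of the dashed line (19p, 36 genes) red bars prevail with 16 red and 1 blue, and right of it (19q, 64 genes) 9 are red and 18 blue.

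The starts of these genes show a sequence that several risers share with genes that were not called. The last 60 bases before the annotated start are shown for 7 risers of the ZNF91 type from chromosomes 4, 7 and 19, for 3 genes of that type that were not called at 24 h (ZNF43, ZNF85 and ZNF138), and for 2 fallers, ZNF202 and ZNF485, (RefSeq, GRCh38.p14; 5′ to 3′ on the gene's strand). Capitals mark CTTCCGG, the reverse complement of CCGGAAG, a core of the sites bound by ETS transcription factors. These genes were chosen after their values and sequences were seen.
ZNF595 (chr4:53261-53320, + strand): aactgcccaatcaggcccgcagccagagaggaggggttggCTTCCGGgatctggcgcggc
ZNF107 (chr7:64666073-64666132, + strand): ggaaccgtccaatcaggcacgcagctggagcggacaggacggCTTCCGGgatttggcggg
ZNF92 (chr7:65373795-65373854, + strand): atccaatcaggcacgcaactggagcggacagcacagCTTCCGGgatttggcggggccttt
ZNF430 (chr19:21020597-21020656, + strand): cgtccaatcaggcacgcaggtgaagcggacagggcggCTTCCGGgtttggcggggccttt
ZNF431 (chr19:21141980-21142039, + strand): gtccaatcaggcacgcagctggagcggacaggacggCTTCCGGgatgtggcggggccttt
ZNF91 (chr19:23395472-23395531, - strand): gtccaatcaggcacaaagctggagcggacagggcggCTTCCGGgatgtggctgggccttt
ZNF254 (chr19:24087127-24087186, + strand): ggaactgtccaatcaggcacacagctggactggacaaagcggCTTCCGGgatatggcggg
ZNF43 (chr19:21836183-21836242, - strand): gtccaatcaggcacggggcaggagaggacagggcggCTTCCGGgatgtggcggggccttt
ZNF85 (chr19:20923191-20923250, + strand): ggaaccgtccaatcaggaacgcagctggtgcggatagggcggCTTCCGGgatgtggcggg
ZNF138 (chr7:64794368-64794427, + strand): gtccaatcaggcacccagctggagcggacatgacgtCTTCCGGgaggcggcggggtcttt
ZNF202 (chr11:123741661-123741720, - strand): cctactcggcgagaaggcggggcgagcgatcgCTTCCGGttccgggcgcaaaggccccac
ZNF485 (chr10:43606378-43606437, + strand): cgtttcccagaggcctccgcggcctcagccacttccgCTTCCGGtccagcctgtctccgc
The risers were picked for their likeness, so that likeness is no result, and the genes that were not called share it: the longest unbroken run in common with ZNF431 was 46 bases in ZNF107, 18 in ZNF91 and ZNF430, 16 in ZNF92, 14 in ZNF254 and 12 in ZNF595, and it was 27 in ZNF43, 21 in ZNF85 and 15 in ZNF138, with 8 in each of the fallers. In the risers the ETS core began 18 to 24 bases before the start, in ZNF43 and ZNF138 24, in ZNF85 18, and in the faller ZNF485 23. Each riser and each of these 3 genes also holds the letters ccaatcagg, a CCAAT box with its flank, upstream of that core. In all, 13 members held these letters and a core at that distance, of which the 7 shown were higher. The letters and the distance were taken from those 7, so that count is no result. The 6 others were not called at 24 h in either direction.

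The values of these 7 genes at 24 h ranged from 0.34 to 1.31. ZNF431 read 8.95, 8.65 and 8.98 with ethanol and 9.52, 9.31 and 9.72 with dexamethasone (0.66 ± 0.18, adjusted p 0.0103), ZNF430 rose by 0.53, ZNF92 by 0.42 and ZNF254 by 0.34. For ZNF430 the other probe set, with a mean of 7.79, read 0.08 (adjusted p 0.641), so its rise is uncertain. The genes with like starts that did not pass the test read 0.23 ± 0.11 (ZNF85, adjusted p 0.107, but 0.0200 once blocked by experiment), 0.18 ± 0.11 (ZNF43, adjusted p 0.214) and 0.00 ± 0.12 (ZNF138, adjusted p 0.996). Probe sets of ZNF107, ZNF430, ZNF254, ZNF43, ZNF85 and ZNF138 are of the _x_at type, so signal from related transcripts could be shared among them. ZNF91, ZNF431, ZNF92 and ZNF595 are read by probe sets without that mark.

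A window of 250 bases before to 50 after the start was at hand for 205 members, and both strands were searched for fixed letters. CCGGAAG was in 95 of the 205 windows (46.3%), against 10.7% of 27305 promoters and 22.2% of 6885 other tested genes at 6 or more. It was in 54.0% of the 50 risers, 35.0% of the 40 fallers and 47.0% of the 115 not called at 24 h. CCAATCAGG, read off the sequences above, was in 34 of 205 windows (16.6%), against 1.18% of the other tested genes. Since the letters came from the 7 risers shown, these are left out of the counts by call. Without them the letters were in 8 of 43 risers (18.6%), in 1 of 40 fallers, ZNF678, whose probe sets disagree, and in 18 of 115 not called (15.7%). The 27 other genes with the letters had a median change of 0.20 at 24 h, with 8 higher and 1 lower, and the 171 without them a median of 0.01, with 35 higher and 39 lower. The letters were chosen with the values known, so this is a description without a test.

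A palindromic glucocorticoid response element, GNACANNNTGTNC, was in 0 of the 205 windows; its share was 0.388% over all promoters of this length and 0.145% over the other tested genes at 6 or more. The E-box CACGTG was in 7.80% of members, against 7.43% of all promoters and 11.3% of those other genes, and the NRF1 site GCGCATGCGC in 2.93%, against 1.36% and 2.80%. ACTACAATTCC, a site of ZNF143, was in 4 members (1.95%), namely ZNF140, ZNF277, ZNF317 and ZNF451, against 0.256% and 0.625%. A match is a stretch of letters in these windows and not a measured site.

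The responses at 6 h and 24 h had the same sign for most ZNF genes. Across the 233 genes the correlation of the log2 changes was 0.626, against 0.700 over the 8443 genes at 6 or more, and 168 (72.1%) had 1 sign at both times. The times share no array, but they share the array type and the probe sets. Experiments numbered 1 and 3 supplied arrays to both times, so the 2 responses are not from separate experiments. Of the called genes 12 were called at both times in 1 direction, 91 at 24 h only, 2 (ZNF689 and ZNF420) at 6 h only, and 127 at neither. ZNF708 alone was called in opposite directions. It read 6.90, 7.06 and 7.15 with ethanol and 6.78, 6.66 and 6.64 with dexamethasone at 6 h, while at 24 h the ethanol arrays had a mean of 6.94 ± 0.05 (SD, n = 3) and the dexamethasone arrays read 7.27, 7.24 and 7.35. Its groups were apart both times, and its responses differed by 0.69 (adjusted p 0.00182); its 1 probe set is of the _x_at type.

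The test of the difference between the responses passed for 46 ZNF genes, 26 with the higher and 20 with the lower response at 24 h (11.2% and 8.58%), against 12.3% and 14.8% of all tested genes. On the spike scale there were 15, with 12 higher and 3 lower. The count was 28 without the dexamethasone array of experiment 1 or the ethanol array of experiment 2 at 24 h, 29 without the dexamethasone array of experiment 3 and 30 without the ethanol array of experiment 1 at 24 h. ZNF117 had the largest positive difference (1.32 ± 0.22, adjusted p 0.00182): at 6 h its arrays read 6.94, 7.52 and 7.54 with ethanol and 7.27, 7.30 and 7.28 with dexamethasone, which overlap. ZNF485 had the largest negative one (-1.57, adjusted p 0.00157), with 6 h arrays at 6.51, 6.58 and 6.44 against 6.47, 5.97 and 6.43. Between the ethanol arrays of the 2 times 0 ZNF genes passed by limma, and over all tested genes 20 were higher and 23 lower at 24 h. An unadjusted p under 0.05 was found for 34 of the 233, against 1585 of all 9947 tested genes. This comparison crosses scan codes, so scan and time cannot be told apart in it. ZNF862 moved by -1.03 ± 0.22 between them (adjusted p 0.0718), which enters its response at 24 h.

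**Figure D5:**
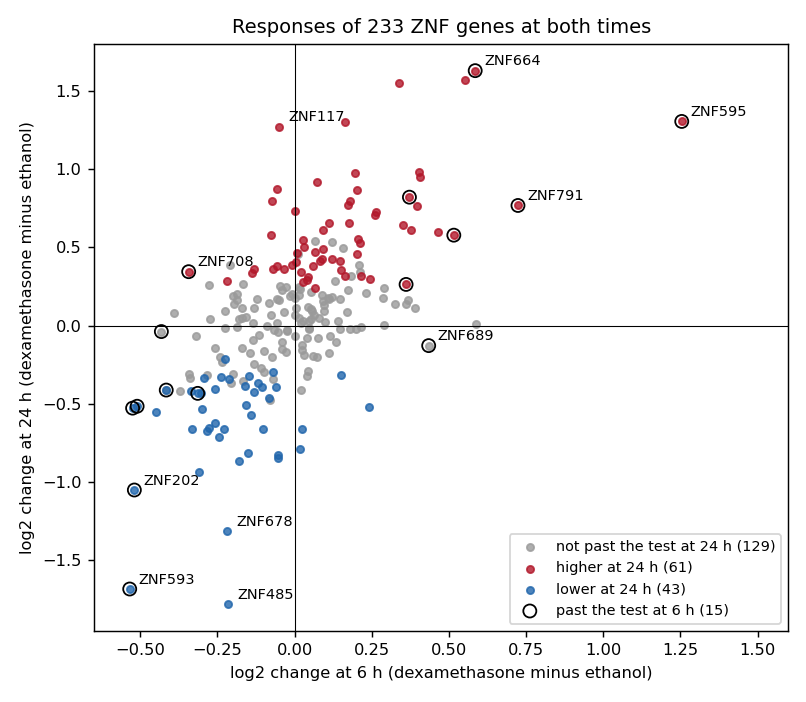
Log2 change at 6 h (horizontal) against log2 change at 24 h (vertical) for the 233 ZNF genes, dexamethasone minus ethanol; red is higher (61), blue lower (43) and grey not past the test (129) at 24 h, and black rings mark the 15 genes past the test at 6 h. Most coloured points lie close to 0 on the horizontal axis, ZNF595 lies far to the right, and ZNF708 is the ringed red point left of 0.

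Where a gene had several probe sets, these were compared. Of 130 members with more than 1 tested probe set, 62 were called at 24 h; in 37 of them another probe set was called in the same direction, in 0 in the opposite direction, and in 55 all others had the same sign. In 22 of the 68 that were not called, another probe set was, as with ZNF207. The same counts over all tested genes are not given here, so these describe the members only. Of the 104 calls at 24 h, 82 held without any 1 array; among the genes named for size at 24 h none was lost, while ZNF496 reached an adjusted p of 0.0589 without the ethanol array of experiment 2 and ZNF668 0.159 without the dexamethasone array of experiment 1.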

How the data were processed

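RNA of 12 cultures, 3 per group, was hybridized to 1 array each. The deposited values are log2 expression per probe set, which the authors computed by GCRMA (R 2.6), as the submitters' processing notes say; its settings are not given in the sources. GCRMA equalizes the quantiles of the arrays, so a shift shared by most transcripts is removed. Of 54675 probe sets, 62 controls were left out and 23265 tested, 19166 of them with 1 symbol for 9947 genes. A model of 4 group means was fitted in limma 3.58.1 (R 4.3.3) to the whole set of arrays, leaving 8 residual degrees of freedom. It was also run on simulated data. The simulated arrays were drawn independently, so that run did not cover the pairing of experiments. Same-numbered experiments paired: deviations from group means correlated at 0.417 to 0.627 at 6 h and 0.238 to 0.424 at 24 h, and no other pair exceeded 0.0500. Signal over background and 3 arrays per group limit the precision. The members, lists and motifs were chosen with earlier results of these data known. Genes were named by rule: the 12 largest calls per direction and time, the 5 largest differences between times, the 5 highest means, genes at the limit and called list members. Alternatives covered block, filter, scaling, eBayes, probe set choice, member level and left-out arrays. Planned protein features were not used here.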

Additional observations from a re-analysis of the deposited data

Results flagged for a closer look

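The responses of 46 ZNF genes differed between 24 h and 6 h by the test of the difference itself. Above the 6 h response at 24 h were ZNF117 by 1.32, ZNF862 by 1.21, ZNF211 by 1.14, ZNF664 by 1.05 and ZNF438 by 1.02 on the log2 scale. For ZNF862 the ethanol mean was 7.59 at 6 h and 6.56 at 24 h and the dexamethasone mean 7.92 and 8.11, so most of the 1.21 lay in the ethanol arrays. Below it were ZNF485 with a difference of -1.57, ZNF593 with -1.15, ZNF678 with -1.10, ZNF584 with -0.81 and ZNF423 with -0.80. At 6 h the ethanol and dexamethasone arrays carry separate scan codes, and the part of the scan in these differences cannot be told apart from treatment. For ZNF678 the difference rests on 1 of 3 probe sets. Groups of 3 arrays are too small for a test of single outlying arrays.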

How the results depend on the processing

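The number of ZNF genes changed at 24 h (104) stayed within 1.5 times under every alternative run. It lay between 78 (of the 165 genes at a mean of 7 or more) and 129. On the spike scale it was 101, with 13 higher and 88 lower. The 15 changed at 6 h became 35 with the experiment as a block, 8 with no filter, 3 with the 6 h arrays alone, 166 on the spike scale and 5 to 11 with 1 array left out. The 46 differences between the times became 15 on the spike scale and 28 to 44 with 1 array left out. The 17 changes on 19p became 7 on the spike scale, 10 without _x_at probe sets and 17 to 20 with 1 array left out; for 19q (27) the last range was 18 to 31. The 19p and 19q settings were chosen after seeing the data. On the spike scale the sign turned for ZNF689 (-0.0790), ZNF266 (-0.141) and ZNF496 (-0.152) at 6 h and for ZNF496 (-0.137), ZNF708 (-0.0559), ZNF830 (-0.108), ZNF24 (-0.0395), ZNF217 (-0.0360), ZNF384 (-0.0810), ZNF254 (-0.0564), ZNF506 (-0.0406) and ZNF253 (-0.0185) at 24 h, in all for 3 of the 15 and 19 of the 104; the spike scale lowers all changes by 0.51 and 0.40. The block lost none of the 15 and 104 calls and added 20 and 25. Among genes in the text it also added ZNF107 (adjusted p 0.0406), ZNF138 (0.0434), ZNF438 (0.0206), ZNF529 (0.0163), ZNF567 (0.0343), ZNF569 (0.0184), ZNF639 (0.0303) and ZNF692 (0.0202) at 6 h, and differences between the times for others, such as ZNF107 (0.0178) and ZNF420 (0.0360). The cause of the other shifts was not tested.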
